A study of Mus musculus with 9 samples.

Results

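The genes described here are 41 genes of collagen and of the enzymes and helper proteins that hydroxylate, fold, trim and cross-link it, out of 56748 gene identifiers in an expression table of mouse granulosa cells. They were chosen by name and not by a cut on their values, though with earlier results of these data known. The list holds 6 fibrillar chains, 8 basement-membrane chains, 7 other collagen chains, 5 lysyl oxidases, 12 hydroxylases and their partners, and 3 genes of chaperoning and procollagen processing. Each of the 41 symbols matched 1 Ensembl identifier in the table. RNA was sequenced in 9 libraries of granulosa cells, the somatic cells that line the ovarian follicle around the oocyte, from wild-type female C57BL/6 mice. Control, with 3 libraries, is called vehicle in the design text and untreated in the labels. CTX, with 3 libraries, came from mice injected with 120 mg per kg of cyclophosphamide, an alkylating drug used to produce premature ovarian failure. CTX_HCQ, with 3 libraries, came from mice given the same injection and 40 mg per kg of hydroxychloroquine by mouth each day, a treatment that started 7 days ahead of the cyclophosphamide and ran for 4 weeks beyond it. Hydroxychloroquine is a weak base that accumulates in lysosomes. The age of the mice, and whether a library is 1 mouse or a pool, are not given in the sources used here, so a p-value here reflects the spread among the libraries and that spread may be technical.

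Collagen chains are made in the endoplasmic reticulum, where prolyl and lysyl hydroxylases modify them and glycosyltransferases add sugars. There the chaperone HSP47 binds the folded trimers. Fibrillar procollagens are trimmed outside the cell and cross-linked by lysyl oxidases, whereas type IV collagen keeps its ends and forms the sheet-like network of basement membranes. In the ovary, granulosa cells rest on a basement membrane rich in type IV collagen that separates the follicle from the theca and stroma, the tissues in which fibrillar collagens are mainly laid down.

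Values are FPKM, which are reads scaled to the length of the gene and to the reads of the library, so that levels can be compared between genes. Whole reads recovered from the FPKM gave 13753242 to 17637297 reads per library over the 14431 genes tested, those with at least 1 FPKM in at least 3 libraries. Granulosa cell markers were abundant in every library: all 13 were found, with a summed level between 4787 and 7852 FPKM, and Foxl2, a transcription factor of granulosa cells, stood between 67.8 and 104 FPKM. Markers of other cells were present too. The 12 fibroblast and stroma markers summed to 216 to 361 FPKM, the 10 smooth muscle and pericyte markers to 53.8 to 209 FPKM, and the 11 endothelial markers to 41.7 to 139.6 FPKM, and no list had a marker at 0 in all libraries. The 9 theca markers summed to 2519.8 to 7666 FPKM and the 8 luteal markers to 2573 to 8189.5 FPKM. Both lists hold Cyp11a1, Star and Hsd3b1, and both ranges overlapped that of the granulosa markers. Cyp17a1, the androgen-synthesis gene of theca cells, ranged from 0.584 to 45.4 FPKM. In a bulk library fewer cells of a type and less RNA per cell cannot be told apart. CTX 3 stood apart in its mitochondrial transcripts, which made up 28.9% of its FPKM against 11.7% to 17.5% in the other libraries.

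Of the 41 genes, 38 passed the filter and were tested. Col4a3 stayed at 0.780 FPKM or less in all libraries, Col8a1 reached 1.07 and Col5a3 reached 1.54, each with 1 FPKM or more in at most 1 library. The most abundant gene was Serpinh1, which encodes HSP47, at 410.0 to 536 FPKM. It was followed by Pcolce, the enhancer of procollagen C-proteinase, at 55.1 to 219 FPKM, and Col6a1, a chain of the beaded filaments of type VI collagen, at 114 to 156 FPKM. Serpinh1 lay above all others without overlap, and Pcolce and Col6a1 overlapped. Among the remaining chains Col4a1 and Col4a2 of the basement membrane and Col3a1 and Col1a1 of fibrils had medians over the 9 libraries of 79.1, 59.8, 64.8 and 46.3 FPKM. These 4 chains overlapped in their ranges. Lysyl oxidases were lower, with medians from 0.181 FPKM for Loxl4 to 18.7 for Loxl2.

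**Figure D1:**
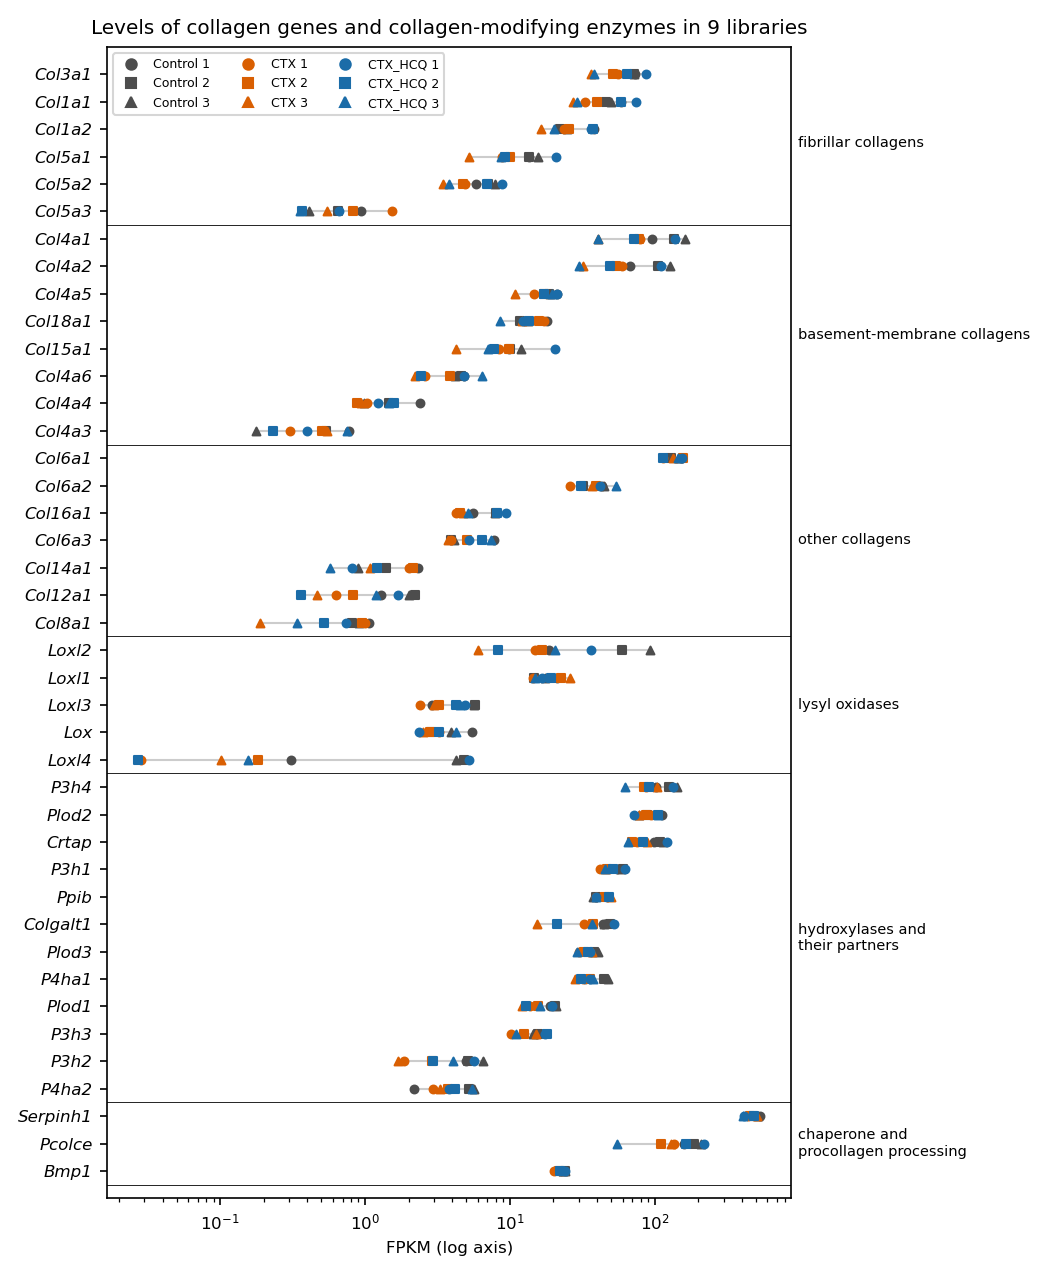
FPKM on a log axis of the 41 genes in the 9 libraries, in 6 groups, with 1 symbol per library (grey for Control, orange for CTX, blue for CTX_HCQ) and a line from the lowest to the highest library. Serpinh1 spans 410.0 to 536 FPKM, while Loxl4 spans 0.0272 to 5.2 and Loxl2 6.05 to 92.3.

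The comparison of CTX with Control addresses what cyclophosphamide leaves behind in these cells. Most of these genes stood lower after cyclophosphamide, among them the basement-membrane chains Col4a1 and Col4a2, the lysyl oxidase Loxl2 and the prolyl 3-hydroxylase P3h2. Of the 38 tested genes, 34 were lower in CTX and 4 were higher, where 50.5% of all genes tested were lower and 49.5% higher. The median difference of the 38 in log2(FPKM + 1) was -0.43, beside -0.00 over all genes. Markers of oviduct and ciliated cells differed between the same groups: all 8 were higher in CTX than in Control, with a median log2 difference of 1.21 and 7 at an unadjusted p under 0.05. Their summed level was 92.2, 13.2 and 8.34 FPKM in Control 1, 2 and 3, 132, 85.5 and 409 in CTX and 16.3, 21.6 and 28.2 in CTX_HCQ. All 5 erythroid markers were lower in CTX, with a median of -1.44, and summed to 471 to 3309.6 FPKM in Control and 341 to 569 in CTX. Of 8 luteal markers 6 were higher in CTX, with a median of 0.24, and of 7 tested theca markers 5, with a median of 0.08. The part of these cells in the collagen values was not tested. In 20 of the 38 collagen genes every CTX library lay below every Control library, and in none did every CTX library lie above, against 11.0% and 8.72% of all genes. No gene passed the test: limma called 0 of 14431 genes at an adjusted p under 0.05 (0% of all genes), and the 38 members shared that result, with adjusted p of 0.639 or more. At an unadjusted p under 0.05 there were 11 of the 38, all lower, which is 28.9% beside 4.20% of all genes on the lower side. On the higher side there were 0 of the 38, beside 3.60% of all genes. The 11 and the 20 include Loxl4 and Col12a1, which were below 1 FPKM in all CTX libraries and passed the filter through others. With a filter at a mean FPKM of at least 5, which leaves both out, 26 of 29 members were lower. Of the 29, 16 were lower without overlap (12.1% of all genes) and 7 at an unadjusted p under 0.05 (4.58%). Over all genes limma gave 1126 such p-values (7.80%), and voom on recovered reads gave 1128 and called 0.

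The counts at an unadjusted p under 0.05 changed with the library left out, and so did the share of all genes. A fit with fewer libraries also has fewer degrees of freedom. At an unadjusted p under 0.05 on the lower side there were 3 of 38 (1.38% of all genes) when Control 2 was left out and 2 (1.5%) when Control 3 was. Leaving out CTX 3 gave 2 (2.10%), CTX 1 gave 7 (2.20%) and CTX_HCQ 3 gave 17 (5.26%). Leaving out Control 1 gave 11 (5.69%), CTX 2 gave 10 (4.85%), CTX_HCQ 1 gave 13 (4.93%) and CTX_HCQ 2 gave 11 (6.26%). The direction did not rest on 1 library, since between 32 and 35 of the 38 were lower with each library left out in turn. With a weight for each library limma called 648 of 14431 genes. Among them were 6 of the 38, namely P3h2, Loxl2, Col12a1, Col16a1, Loxl3 and Loxl4 (adjusted p 0.0369 to 0.0479 by limma). The weights were highest for Control 2, CTX_HCQ 1 and Control 3, which were also the libraries highest in Loxl2 and Loxl4. Without Control 1 limma called 13 of 14431 genes, 0 of them among the 38. Without CTX 3 and CTX_HCQ 3 together 34 were lower, where 49.8% of all genes were, and 8 were at an unadjusted p under 0.05 on the lower side, where 3.08% were.

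**Figure D2:**
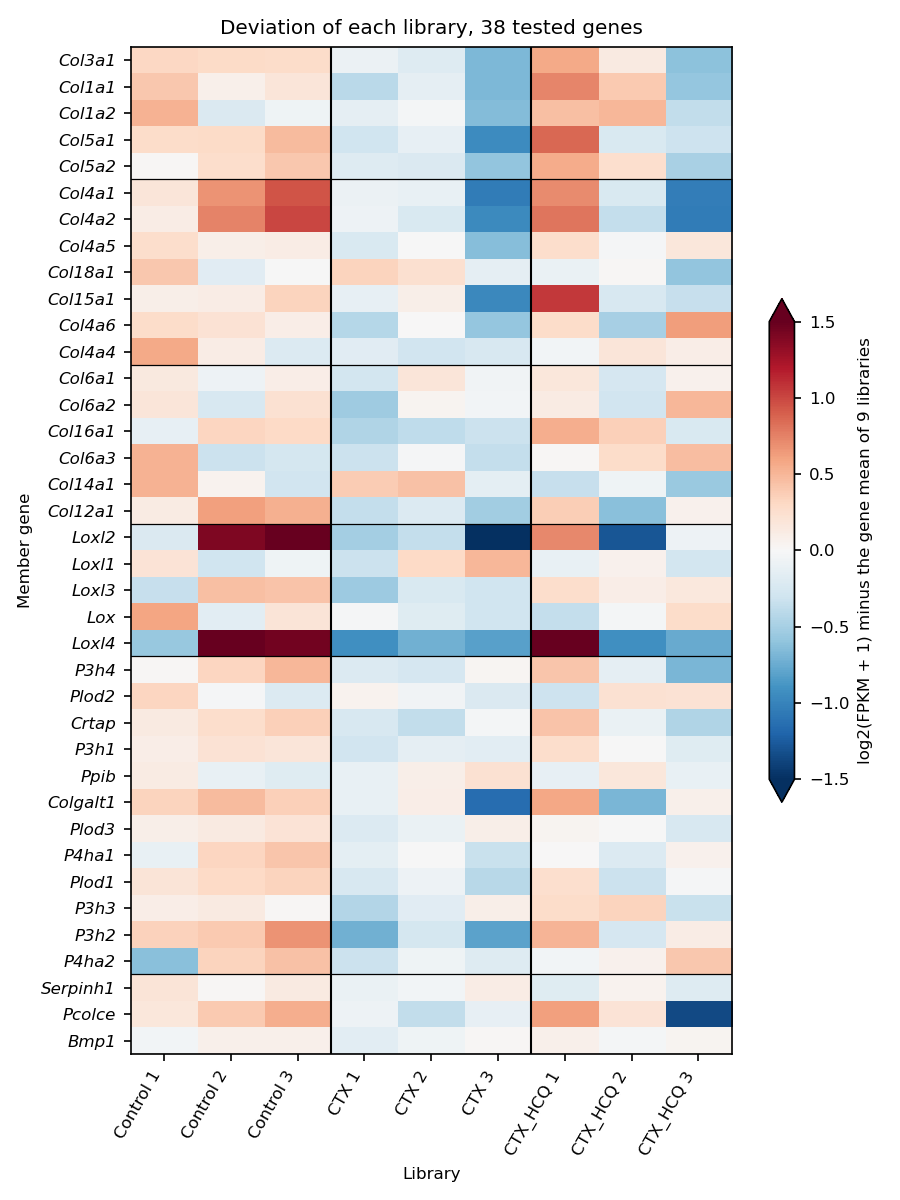
Deviation of each library from the mean of the 9 libraries in log2(FPKM + 1), as colour, for the 38 tested genes (rows) in 9 libraries (columns), with colours capped at 1.5 on both sides. The 3 Control libraries and CTX_HCQ 1 are mostly above the gene means and the CTX libraries mostly below, and CTX 3 holds the lowest value of 16 of the 41 genes.

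All 5 tested fibrillar chains were lower in CTX, with a median log2 difference of -0.61. In 4 of them the groups did not overlap, where 11.0% of all genes were lower without overlap. Col3a1, the chain of type III collagen in fine reticular fibrils, held 73.0, 72.0 and 71.5 FPKM in Control 1, 2 and 3 and 55.4, 51.3 and 36.6 in CTX 1, 2 and 3. The Control libraries lay close together and all CTX libraries lay below them. Col1a1, the main chain of type I collagen, held 58.7, 46.3 and 50 FPKM in Control and 32.9, 39.8 and 27.1 in CTX. Its partner Col1a2 held 38, 22.3 and 24.9 in Control and 23.8, 25.6 and 16.3 in CTX, and here the groups overlapped, since Control 1 alone stood well above the CTX libraries. Col5a1, a chain of type V collagen that sets the width of type I fibrils, held 13.5, 13.6 and 15.7 FPKM in Control and 8.79, 10 and 5.26 in CTX. Its log2 difference was -0.80 (SE 0.32, adjusted p = 0.639 by limma), the only fibrillar chain at an unadjusted p under 0.05. Col5a2, the second chain of that trimer, ranged from 5.80 to 7.89 FPKM in Control and from 3.47 to 4.87 in CTX.

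Basement-membrane chains were lower in 6 of 7 tested, with a median log2 difference of -0.52. In 5 the groups did not overlap, where 11.0% of all genes were lower without overlap. Col4a1 and Col4a2 encode the chains of the ubiquitous type IV trimer. Both genes lie next to each other, on opposite strands and head to head. In the RefSeq annotation of GRCm38.p6 the windows from 250 bases before to 50 bases after their starts share 78 bases. The starts lie 21 bases apart, with that of Col4a1 inside the Col4a2 transcript, so the annotated transcripts overlap at their starts. 30 bases around a CCAAT box before the start of Col4a2, on the plus strand at chr8:11312761-11312790, are shown because the pair kept a close ratio in every library. Capitals mark the box (CCAAT, searched on both strands), which begins 32 bases before the start of Col4a2. The stretch lies after the annotated start of Col4a1, so it is upstream of Col4a2 only.
Col4a2 upstream: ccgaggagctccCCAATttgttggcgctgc

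Col4a1 held 95.8, 135 and 163 FPKM in Control 1, 2 and 3, and 79.1, 78.0 and 40.3 in CTX 1, 2 and 3. All CTX libraries lay below all Control libraries, though CTX 1 was closer to Control 1 than Control 1 was to Control 3. The log2 difference was -1.01 (SE 0.44, adjusted p = 0.639), and the Control mean was 1.99 times that of CTX. Col4a2 held 67.8, 106 and 127 FPKM in Control and 59.8, 53.7 and 32.1 in CTX, and the log2 difference was -1.04 (SE 0.45, adjusted p = 0.639). The order of the libraries was nearly that of Col4a1.

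Col4a5, a chain that can replace them in other type IV networks, held 21.1, 18.6 and 18.9 FPKM in Control and 14.7, 17.3 and 10.8 in CTX, and the log2 difference was -0.45 (SE 0.20, adjusted p = 0.639). Its head-to-head neighbour Col4a6 ranged from 4.15 to 4.85 FPKM in Control and from 2.23 to 3.86 in CTX, without overlap. Col4a4 ranged from 0.989 to 2.39 in Control and from 0.875 to 1.03 in CTX, with overlap. The chains of basement-membrane zones that end in a cleavable antiangiogenic fragment were unalike. Col15a1 ranged from 9.94 to 11.9 FPKM in Control and from 4.25 to 9.89 in CTX, with CTX 2 just under the lowest Control library. Col18a1, whose fragment is endostatin, held 18.1, 11.8 and 13.3 in Control and 17.1, 16 and 12.1 in CTX, so that the groups overlapped fully.

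The other collagens differed among themselves. Type VI chains overlapped between the groups: Col6a1 stood at 143 ± 12 FPKM in Control and 134 ± 20.9 in CTX (mean ± SD, n = 3), Col6a2 at 40.1 ± 6.91 and 34.2 ± 7.08, and Col6a3 at 5.28 ± 2.21 and 4.25 ± 0.715. Col16a1, a chain that associates with fibrils and decorates their surface, held 5.58, 8.0 and 7.85 FPKM in Control and 4.25, 4.52 and 4.75 in CTX. Its log2 difference was -0.55 (SE 0.22, adjusted p = 0.639). Col12a1, of the same fibril-associated class, held 1.29, 2.20 and 2.02 FPKM in Control and 0.632, 0.822 and 0.464 in CTX, and the log2 difference was -0.78 (SE 0.28, adjusted p = 0.639). It was below 1 FPKM in all CTX libraries and passed the filter through the other groups, and its difference was -1.38 with a pseudocount of 0.1 and -1.52 with voom on recovered reads. Col14a1, a further fibril-associated chain, overlapped, at 0.891 to 2.31 FPKM in Control and 1.09 to 2.14 in CTX.

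Among the enzymes of the endoplasmic reticulum, 11 of the 12 hydroxylases and partners were lower in CTX, with a median log2 difference of -0.36. In 6 the groups did not overlap, where 11.0% of all genes were lower without overlap. P3h2, which adds 3-hydroxyproline and acts mainly on basement-membrane collagen, had the smallest p of all 38 genes. It held 4.97, 5.18 and 6.49 FPKM in Control 1, 2 and 3 and 1.85, 2.92 and 1.70 in CTX 1, 2 and 3. The CTX libraries lay far below the Control libraries, with a log2 difference of -1.06 (SE 0.23, unadjusted p = 0.000935, adjusted p = 0.639) and a Control mean 2.57 times that of CTX. Its relative P3h1, which works on fibrillar collagen in a complex with CRTAP and cyclophilin B, held 55.3, 60 and 58.8 FPKM in Control and 42.2, 47.1 and 46.2 in CTX. Crtap held 98.9, 108 and 115 in Control and 75.6, 69.4 and 88.1 in CTX. Ppib, the gene of cyclophilin B, ran the other way without separation, at 37.5 to 46.5 FPKM in Control and 39.4 to 49.8 in CTX.

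The lysyl hydroxylases were graded. Plod1, which hydroxylates lysines of the triple helix, held 18.9, 20.5 and 20.9 FPKM in Control and 13.8, 15.6 and 12.1 in CTX, and the log2 difference was -0.52 (SE 0.19, adjusted p = 0.639). Plod3, which also adds sugars, ranged from 37.0 to 40.3 in Control and from 30.1 to 37.0 in CTX, with a gap at the boundary smaller than the third digit. Plod2, whose product prepares telopeptide lysines for stable cross-links, overlapped at 78.0 to 113 FPKM in Control and 77.7 to 93.6 in CTX. Colgalt1, the galactosyltransferase that acts on hydroxylysine, held 44.3, 48.9 and 45.0 in Control and 32.3, 37.5 and 15.3 in CTX, with CTX 3 lowest by a wide margin. Of the catalytic subunits of prolyl 4-hydroxylase, P4ha1 ranged from 33.1 to 47.9 FPKM in Control and from 28.2 to 35.6 in CTX, and P4ha2 from 2.18 to 5.68 and from 2.93 to 3.72. P3h3 at 14.4 to 15.7 and 10.2 to 15.2 FPKM, and its partner P3h4 at 102 to 142 and 84.6 to 103, overlapped through CTX 3. That library lay well inside the Control range of P3h3 and just above the lowest Control library of P3h4.

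The 3 chaperone and processing genes were all lower in CTX, with a median log2 difference of -0.12. Serpinh1 stood at 509.5 ± 30.7 FPKM in Control and 468 ± 35.6 in CTX, and Bmp1, the procollagen C-proteinase itself, at 23.4 ± 1.07 and 21.7 ± 1.42. Pcolce, which enhances that protease, held 160.4, 187 and 208 FPKM in Control and 135, 110.3 and 130.5 in CTX, without overlap, at a log2 difference of -0.56 (SE 0.43) and an unadjusted p of 0.226.

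Of the 5 lysyl oxidases, which start the cross-linking of collagen and elastin, 4 were lower in CTX and 1 was higher, with a median log2 difference of -0.54. Loxl2, the family member that also cross-links type IV collagen, held 18.7, 59.2 and 92.3 FPKM in Control 1, 2 and 3 and 15.0, 16.8 and 6.05 in CTX 1, 2 and 3. Control 2 and Control 3 were high, Control 1 lay just above the highest CTX library, and the log2 difference was -1.93 (SE 0.64, adjusted p = 0.639). Loxl4 held 0.308, 4.82 and 4.28 FPKM in Control and 0.0282, 0.181 and 0.101 in CTX, from 2 to 13 reads per CTX library and 22 to 364 per Control library. It was above 1 FPKM in 3 libraries, Control 2, Control 3 and CTX_HCQ 1, and passed the filter through them, with a log2 difference of -1.64 (SE 0.71, adjusted p = 0.639). That difference depended on the scale, at -3.41 with a pseudocount of 0.1 and -4.40 with voom on recovered reads, where Loxl2 stood at -2.01 and -2.02. Loxl3 held 2.89, 5.76 and 5.63 FPKM in Control and 2.39, 3.22 and 3.0 in CTX, with Control 1 inside the CTX range and a log2 difference of -0.54 (SE 0.22, adjusted p = 0.639). The founding member Lox, at 2.86 to 5.49 FPKM in Control and 2.51 to 3.26 in CTX, overlapped, as did Loxl1, the member tied to elastic fibres, at 14.6 to 21.2 and 14.4 to 26.2.

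A promoter window of RefSeq was at hand for 28 of the 41 genes, and of the lysyl oxidases only for Loxl4. The 250 bases before its start, on the minus strand of GRCm38.p6 at chr19:42612807-42613056, are shown because Loxl4 had the widest range of the 41 genes. Capitals mark the GC boxes (GGGCGG, searched on both strands), of which there are 3.
Loxl4 upstream: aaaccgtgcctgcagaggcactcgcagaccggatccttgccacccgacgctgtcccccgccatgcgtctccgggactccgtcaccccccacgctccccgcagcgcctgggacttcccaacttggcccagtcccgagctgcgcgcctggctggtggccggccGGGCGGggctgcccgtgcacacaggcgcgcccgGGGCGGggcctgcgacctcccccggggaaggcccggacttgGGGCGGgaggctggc

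The 28 genes have 32 windows, so some genes count more than once. GC boxes were found in 24 of these 32 windows and in 35.7% of the 32851 promoter windows of the table, all 300 bases long. CCAAT boxes were found in 11 of the 32 and in 37.4% of all windows. AP-1 motifs (TGANTCA) stood in 1 of the 32, that of Col6a1, and in 7.81% of all, and RUNX motifs (TGTGGT) in 5 of the 32 and 16.8% of all. Both strands were searched throughout, and a match is only a match of letters.

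**Figure D3:**
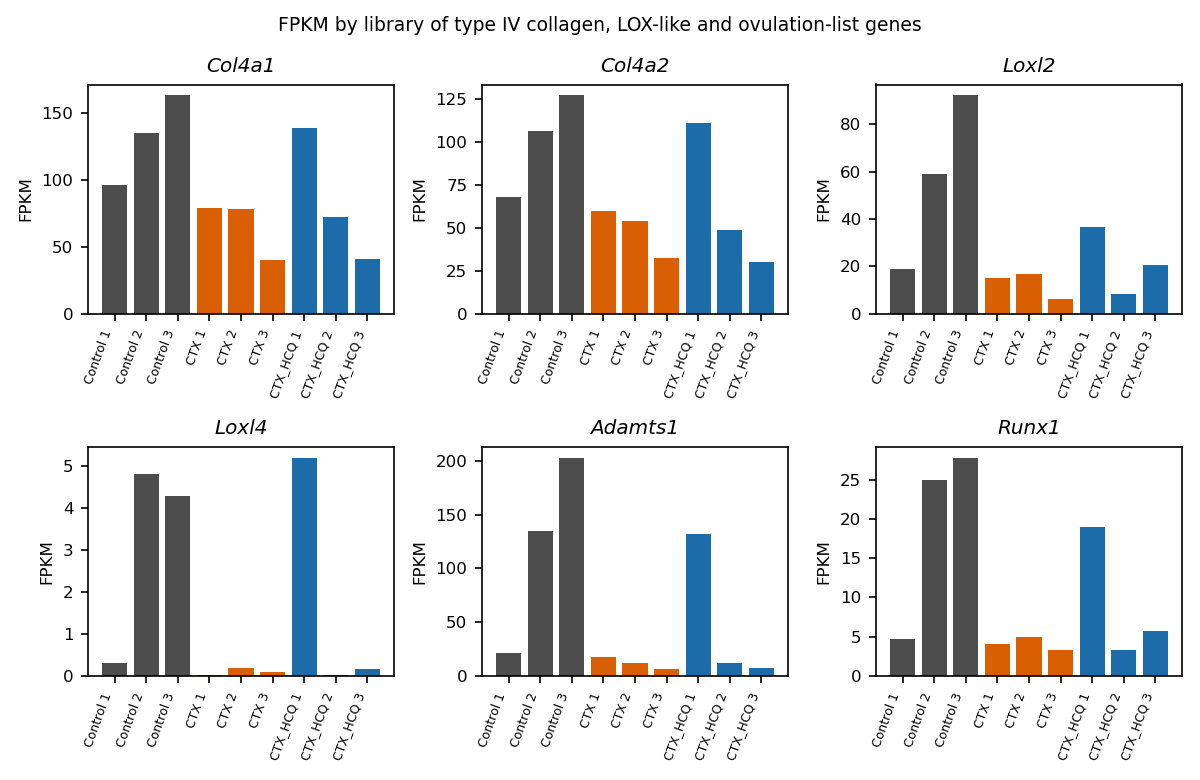
FPKM of 6 genes in each of the 9 libraries, as bars from 0 (grey for Control, orange for CTX, blue for CTX_HCQ). Control 2, Control 3 and CTX_HCQ 1 are the 3 highest libraries for Col4a1, Col4a2, Loxl2 and Loxl4, and also for Adamts1 and Runx1 of the ovulation response list.

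Of the 14 genes listed for the ovulation response 6 were tested, and 5 were lower and 1 higher in CTX than in Control. The libraries high in Loxl2, Loxl4, Col4a1 and Col4a2 were also high in Adamts1, Runx1, Edn2 and Cited4, picked with their values in view. Adamts1, a matrix protease induced at ovulation, held 21.0, 135 and 203 FPKM in Control, 17.2, 11.5 and 6.64 in CTX and 132, 12.4 and 7.22 in CTX_HCQ 1, 2 and 3. Runx1, a transcription factor of the same response, held 4.74, 24.9 and 27.8 in Control, 4.00, 4.99 and 3.25 in CTX and 19.0, 3.23 and 5.70 in CTX_HCQ. Edn2 held 1.05, 7.97 and 14.9 in Control, 1.14, 1.29 and 0.625 in CTX and 14.6, 1.13 and 2.63 in CTX_HCQ. Cited4 held 63.6, 104 and 130.0 in Control, 77.3, 45.0 and 32.7 in CTX and 135, 56.8 and 13.0 in CTX_HCQ. The other tested genes of the list, Star and Runx2, did not share this pattern in Control and CTX, though both fell from CTX_HCQ 1 to CTX_HCQ 3. Star, the cholesterol carrier of steroid synthesis, held 152, 148 and 141 FPKM in Control, 151, 179 and 137 in CTX and 192, 149 and 42.7 in CTX_HCQ. Runx2 held 24.0, 19.0 and 27.1 in Control, 26.0, 22.1 and 9.49 in CTX and 19.5, 11.7 and 6.19 in CTX_HCQ. Ptgs2, the prostaglandin synthase induced before ovulation, stayed at 0.369 FPKM or less, and Pgr, the progesterone receptor, at 0.292 or less with its lowest value in Control 2. The part of this response in the collagen values was not tested. Fibroblast and stroma markers did not separate Control from CTX: the summed level was 238 to 297 FPKM in Control, 239 to 298 in CTX and 216 to 361 in CTX_HCQ, and of 11 tested markers 6 were lower and 5 higher in CTX, with a median log2 difference of -0.04. Endothelial markers, from cells that also make type IV collagen, summed to 41.7 to 111 FPKM in Control, 74.1 to 139.6 in CTX and 51.5 to 131 in CTX_HCQ, and all 11 were higher in CTX than in Control. Smooth muscle and pericyte markers summed to 53.8 to 169.9 FPKM in Control, 114 to 139 in CTX and 68.3 to 209 in CTX_HCQ, with 8 of 9 higher in CTX than in Control. The endothelial sum was low in Control 2, Control 3 and CTX_HCQ 1, at 42.7, 41.7 and 51.5 FPKM, which were high in Col4a1 and Col4a2, and also in CTX_HCQ 3, at 56.3, which was among the lowest in both. The smooth muscle sum was low in the same 4 libraries, at 53.8, 69.2, 74.8 and 68.3 FPKM. The part of endothelial and smooth muscle cells in these values was not tested.

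The comparison of CTX_HCQ with CTX addresses what hydroxychloroquine adds to cyclophosphamide. Most collagen genes stood higher with hydroxychloroquine, but mainly through 1 library, CTX_HCQ 1. Of the 38 tested genes 32 were higher and 6 lower, where 52.1% of all genes were higher and 47.9% lower, and the median log2 difference was 0.28 beside 0.01 over all genes. Without CTX_HCQ 1 the counts were 25 and 13, the median was 0.09 and no member had an unadjusted p under 0.05. Oviduct and ciliated cell markers were lower in CTX_HCQ than in CTX in 7 of 8, 6 of them at an unadjusted p under 0.05, with a median of -1.39. All 8 luteal markers were lower too, 1 at that level, with a median of -0.78. Of 7 tested theca markers 5 were lower, with a median of -0.22. The part of these cells was not tested. This comparison shares its CTX libraries with the one above, so the opposite directions are not independent. Limma and voom called 0 genes (0% of all), with 785 (5.44%) and 751 genes at an unadjusted p under 0.05.

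At an unadjusted p under 0.05 there were 3 of the 38, all higher, or 7.89% beside 1.84% of all genes on the higher side, and 0 on the lower side, beside 3.60%. P3h2 held 5.67, 2.95 and 4.08 FPKM in CTX_HCQ 1, 2 and 3 against 1.85, 2.92 and 1.70 in CTX, with a log2 difference of 0.72 (SE 0.23, adjusted p = 0.710). CTX_HCQ 2 lay just above CTX 2, so the groups were separated by less than the spread within them. Col16a1 held 9.47, 8.18 and 5.14 against 4.25, 4.52 and 4.75, a log2 difference of 0.61 (SE 0.22, adjusted p = 0.833). Loxl3 held 4.93, 4.27 and 4.50 against 2.39, 3.22 and 3.0, a log2 difference of 0.53 (SE 0.22, adjusted p = 0.906), and its 3 CTX_HCQ libraries lay close together and above CTX. The next smallest p-values belonged to Col4a5 and Col14a1. Col4a5 held 21.2, 17.2 and 19.7 against 14.7, 17.3 and 10.8, a log2 difference of 0.43 (SE 0.20, adjusted p = 0.906). Col14a1 was lower, at 0.817, 1.21 and 0.576 against 2.02, 2.14 and 1.09, a log2 difference of -0.55 (SE 0.27, adjusted p = 0.906).

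The groups did not overlap in 6 of the 38 genes, all higher in CTX_HCQ, where 3.45% of all genes were higher and 4.57% lower without overlap. Beside P3h2, Col16a1 and Loxl3 these were Col4a4 at 1.22 to 1.59 FPKM against 0.875 to 1.03, Col6a3 at 5.22 to 7.44 against 3.77 to 5.07, and P4ha2 at 3.80 to 5.52 against 2.93 to 3.72. The count was 13 without CTX_HCQ 3 and 14 without CTX_HCQ 2, where 8.61% and 15.4% of all genes were higher without overlap. The number at an unadjusted p under 0.05 on the higher side was 9 without CTX_HCQ 3 (1.66% of all genes), 1 without CTX 1 (0.755%) and 2 without CTX 3 (1.99%). Without CTX 3 and CTX_HCQ 3 together it was 6 (2.43%), with 31 of 38 higher.

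The fibrillar chains show how far the CTX_HCQ libraries lay apart. Col1a1 held 73.8, 58.2 and 29.1 FPKM in CTX_HCQ 1, 2 and 3, Col3a1 held 87.6, 64.8 and 38, and Col5a1 held 20.9, 9.25 and 8.70. In all 3 genes CTX_HCQ 1 was the highest of the 9 libraries and CTX_HCQ 3 lay within the CTX range. Col4a1 held 139, 72.0 and 40.7 and Col4a2 111, 48.8 and 29.9, so that CTX_HCQ 1 lay among the Control libraries and CTX_HCQ 3 beside CTX 3. Col15a1 in CTX_HCQ 1 reached 20.4 FPKM, above 11.9 in the highest of the other libraries. Pcolce held 219, 164 and 55.1 FPKM, with its highest and lowest values of the 9 libraries in this group. Col4a6 ran otherwise, at 4.86, 2.42 and 6.42, with CTX_HCQ 3 highest.

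**Figure D4:**
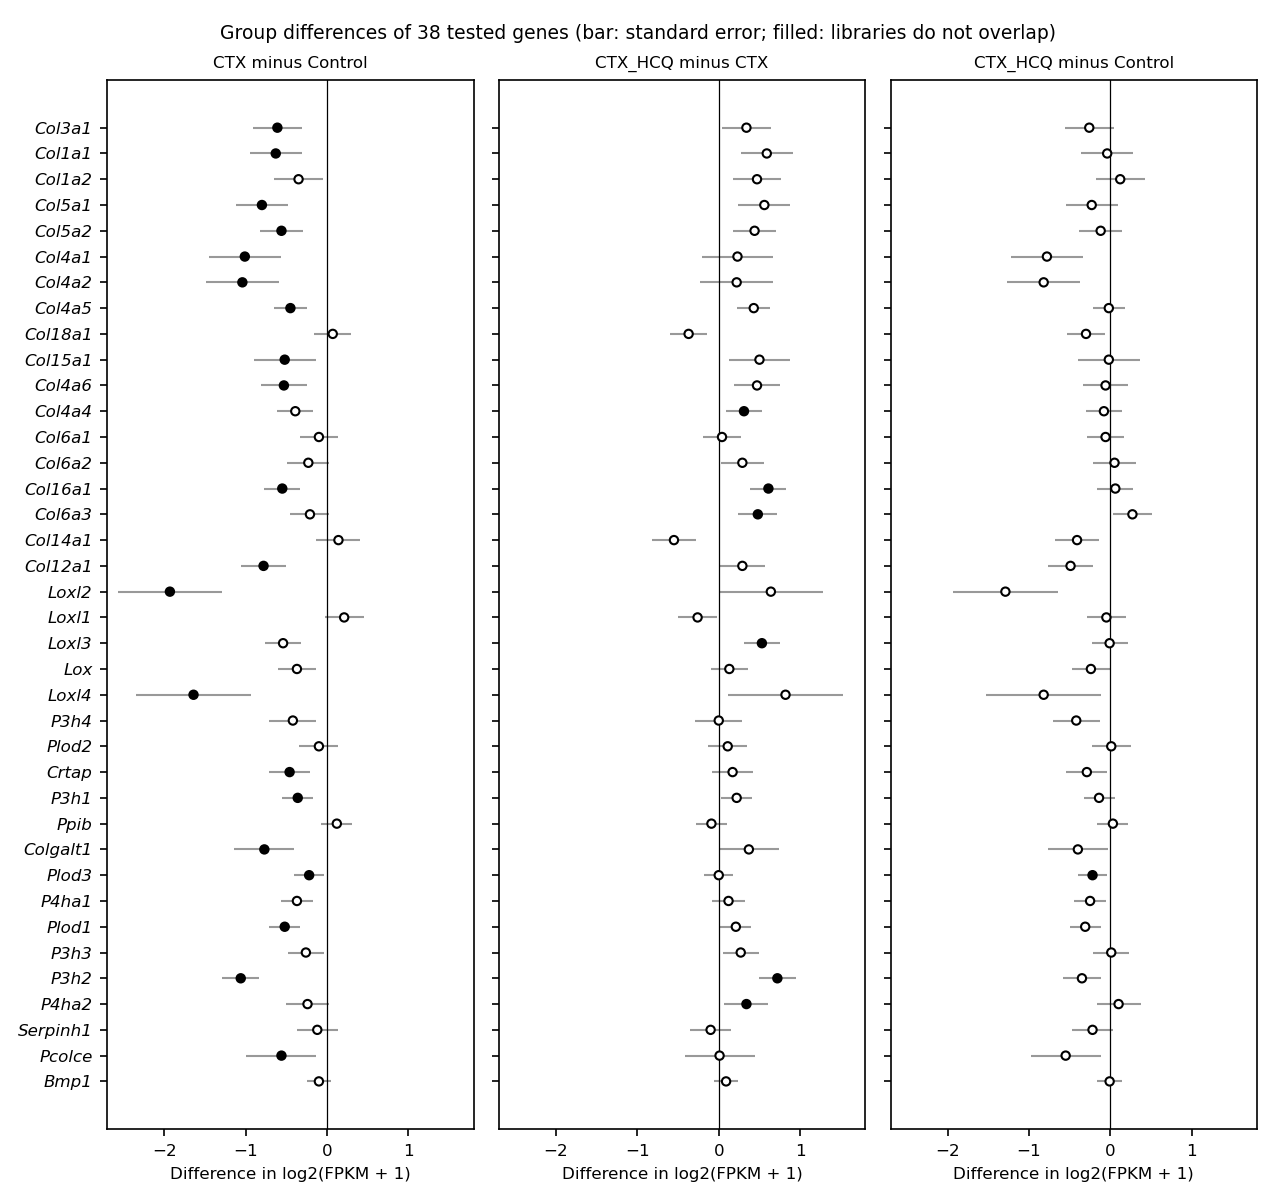
Difference in log2(FPKM + 1) between groups for the 38 tested genes, with bars for the standard error from limma and filled points where the libraries of the groups do not overlap. CTX lies below Control in 34 genes, CTX_HCQ above CTX in 32 and CTX_HCQ below Control in 30, and none of these differences passed at an adjusted p under 0.05.

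The comparison of CTX_HCQ with Control asks what remained under both drugs. Most collagen genes lay below Control by a small margin: 30 of 38 were lower, where 51.9% of all genes were, and 8 were higher, where 48.1% were, with a median log2 difference of -0.18 beside -0.01. No member had an unadjusted p under 0.05, where 1.07% of all genes were lower and 1.09% higher at that level, and limma and voom called 0 of 14431 genes (312, or 2.16%, and 290 at an unadjusted p under 0.05). The smallest p belonged to Loxl2, which held 36.5, 8.34 and 20.6 FPKM in CTX_HCQ against 18.7, 59.2 and 92.3 in Control, with a log2 difference of -1.29 (SE 0.64, adjusted p = 1.0). Col4a2 and Col4a1 followed with log2 differences of -0.82 (SE 0.45) and -0.78 (SE 0.44), then Col12a1 with -0.49 (SE 0.28) and Plod1 with -0.31 (SE 0.19), all with an adjusted p of 1.0. Col12a1 held 1.70, 0.361 and 1.19 FPKM in CTX_HCQ, and Plod1 held 19.7, 12.9 and 16.2. In each of these 5 genes the groups overlapped. Among the 38 only Plod3 did not, at 29.2 to 35.8 FPKM against 37.0 to 40.3, where 3.06% of all genes were lower and 3.25% higher without overlap. Without CTX_HCQ 1 the picture changed: 10 of 38 had an unadjusted p under 0.05, all lower, beside 4.21% of all genes.

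The chains that share a trimer were compared by the ratio of their FPKM in each library. Col4a1 exceeded Col4a2 by a ratio of 1.25 to 1.47 in all 9 libraries, although each gene varied by more than that between libraries, from 40.3 to 163 and from 29.9 to 127 FPKM. The ratio was 1.32 ± 0.0833 in Control, 1.34 ± 0.0992 in CTX and 1.36 ± 0.112 in CTX_HCQ. Col1a1 to Col1a2, which enter type I collagen in unequal numbers, ranged from 1.38 to 2.07, and Col5a1 to Col5a2 from 1.32 to 2.36. Col6a1 exceeded Col6a2 by 2.65 to 4.36 and Col6a3, which joins them in equal number, by 18.0 to 35.8. Col4a5 exceeded Col4a6 by 3.08 to 7.08. Col4a3 to Col4a4, both at low levels, ranged from 0.144 to 0.584. For comparison, Col4a1 to Col4a5 ranged from 2.06 to 8.62 and the enzyme pair Loxl2 to Loxl1 from 0.231 to 5.29. In each of these pairs the Control and CTX libraries overlapped.

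**Figure D5:**
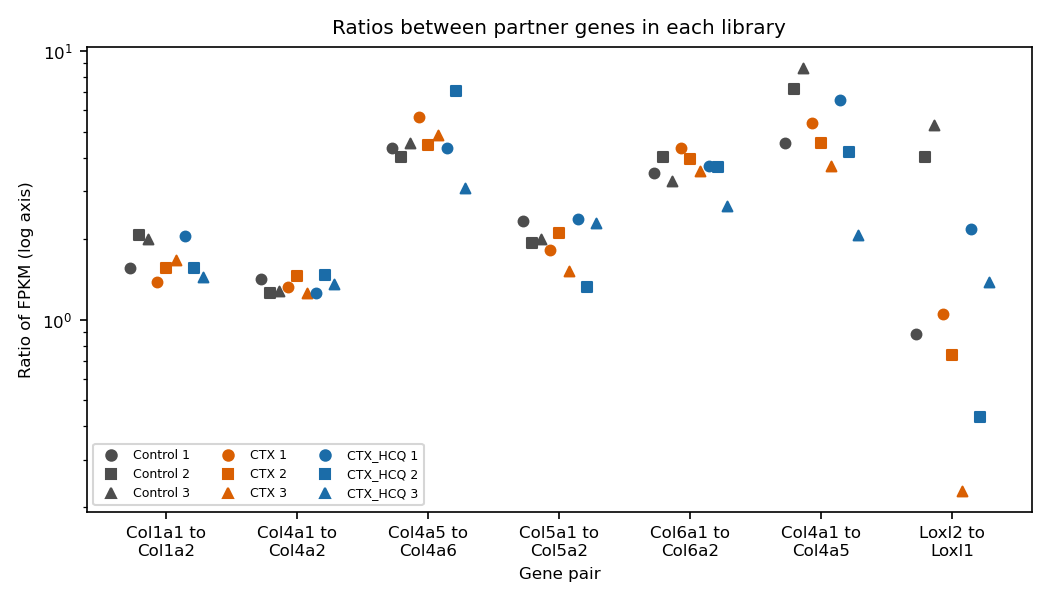
Ratio of FPKM between partner genes in each of the 9 libraries, on a log axis, with 1 symbol per library. Col4a1 to Col4a2 spans 1.25 to 1.47, the narrowest of the 7 pairs drawn, and Loxl2 to Loxl1 spans 0.231 to 5.29.

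Other genes of the matrix were taken from lists. No gene of these lists passed in any comparison. For all genes, 50.5% were lower in CTX than in Control and 4.20% were lower at an unadjusted p under 0.05. Of 19 tested basement-membrane partners, 17 were lower in CTX than in Control, 7 of them at an unadjusted p under 0.05. Hspg2, the gene of the basement-membrane proteoglycan perlecan, averaged 27.0 ± 6.39 FPKM over the CTX libraries and 74.7 ± 20.8 over the Controls (mean ± SD, n = 3), with -1.42 as the log2 difference (SE 0.41, adjusted p = 0.639). The laminin chains Lamc1 and Lamb2 had means of 22 ± 7.03 and 47.6 ± 8.78 FPKM in the CTX libraries, beside 39.1 ± 3.14 and 90.5 ± 18.8 in the Controls. Fbln2, a fibulin of basement membranes, stood at 2.05 ± 0.526 and 3.98 ± 0.947. Of 20 tested genes of collagen breakdown 14 were lower in CTX, 6 at an unadjusted p under 0.05, among them the gelatinase gene Mmp2 at 4.41 ± 0.834 and 8.57 ± 0.996 FPKM. Of 20 other genes of collagen making, 16 were lower and 3 were at that level, with Adamts2, the procollagen N-proteinase, at 27.7 ± 9.81 and 48.0 ± 15.0 FPKM in CTX and Control. Of 12 collagen receptors 11 were lower, with the integrin chain Itgav at 21.7 ± 5.05 and 36.0 ± 4.72. Of 24 fibril partners 17 were lower, 2 at that level.

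The remaining collagen chains of the genome did not follow as a set, though most of them were low. Of 23 others, 8 were tested, and 5 were higher and 3 lower in CTX, with a median log2 difference of 0.18 and none at an unadjusted p under 0.05. Col9a2, the most abundant of them at 10.4 to 40.1 FPKM, averaged 19.0 ± 9.09 in CTX and 30.6 ± 7.96 in Control. It was lower, as most members were, with a log2 difference of -0.73 (SE 0.35, unadjusted p = 0.0618, adjusted p = 0.652 by limma). The other tested chains averaged 0.997 to 9.16 FPKM over the 9 libraries. TGF-beta signalling genes and targets were split evenly, 8 higher and 8 lower of 16, with a median log2 difference of -0.00. In CTX_HCQ against CTX, 14 of 19 basement-membrane partners, 12 of 20 breakdown genes and 13 of 24 fibril partners were higher, where 52.1% of all genes were, so that the counts of breakdown genes and fibril partners lay near the background. Eln, the elastin gene, had the smallest p of these lists, at 5.14 ± 0.424 FPKM in CTX_HCQ and 3.16 ± 0.408 in CTX (log2 difference 0.56, SE 0.15, adjusted p = 0.511). Smad7, the inhibitor of TGF-beta signalling, stood at 9.82 ± 2.74 and 5.41 ± 0.867 (log2 difference 0.73, SE 0.21, adjusted p = 0.598). In CTX_HCQ against Control, 16 of 19 basement-membrane partners and 15 of 20 breakdown genes were lower, where 51.9% of all genes were, and none was at an unadjusted p under 0.05.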

How the data were processed

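The authors deposited 1 table of FPKM covering 9 libraries. The submitters' processing notes name GRCm39 (mm39) as the build, and DESeq2 1.20.0, featureCounts 1.5.0-p3, HISAT2 2.0.5 and fastp 0.23.2 without roles or settings. The sources used here do not state strandedness. Symbols came from GENCODE M21 and matched 52073 of 56748 identifiers. Promoter windows came from RefSeq on GRCm38.p6.

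Genes with at least 1 FPKM in at least 3 of 9 libraries were tested as log2(FPKM + 1), so differences of low genes are understated, in 1 model of all libraries with limma 3.58.1 (R 4.3.3), moderated variances with a trend and Benjamini-Hochberg adjustment over all 14431 genes per comparison (threshold 0.05). With annotated exon lengths the FPKM gave whole reads, within 0.02 reads, for 13578 of the 14431 tested genes. For the other 853 a length was searched that made the reads whole, so whole reads are no check there. Within groups the chi-square of reads per degree of freedom was 15 to 158, so no libraries were duplicates. The tests were tried on simulated data. Members with an unadjusted p under 0.05, or the 5 smallest, are given in full. Adamts1, Runx1, Edn2, Cited4, Runx2, Star, Ptgs2, Pgr, Foxl2 and Cyp17a1 were picked with their values in view. Members, lists and tests were chosen with earlier results of these data known. Alternatives covered pseudocount, filter, scaling, library weights, groups in the fit, the replicate block, voom on the reads and leaving out each library.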

Additional observations from a re-analysis of the deposited data

How the results depend on the processing

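With library weights 648, 1 and 1 of 14431 genes were called in CTX against Control, CTX_HCQ against CTX and CTX_HCQ against Control. Among the 648 were 6 of the 38 tested members (P3h2, Loxl2, Col12a1, Col16a1, Loxl3 and Loxl4, adjusted p 0.0369 to 0.0479 by limma). The member medians of CTX_HCQ against CTX and against Control were 0.48 and 0.00. These weights were 0.593, 3.72 and 2.48 in Control 1, 2 and 3, 1.42, 1.37 and 0.376 in CTX and 2.96, 0.322 and 0.262 in CTX_HCQ. With single libraries left out, the calls ranged from 0 to 13, 0 to 10 and 0 to 0, the highest of the first 2 without Control 1, and the member medians from -0.52 to -0.39, 0.09 to 0.34 and -0.28 to -0.09. Under the other alternatives no gene was called and the medians lay within 1 SD of the libraries. The replicate number as a block called 0 genes in each comparison, with medians of -0.43, 0.28 and -0.18, and with members at an unadjusted p under 0.05 numbering 8 lower (2.83% of all genes), then 1 lower (3.12%) and 3 higher (1.51%), then 0 (0.838% lower, 1.19% higher). Libraries of 1 number correlated in their deviations at -0.457 to 0.135, so the numbers do not pair them. No named member changed direction under any alternative, but Loxl4 and Col12a1 in CTX against Control moved from -1.64 and -0.78 to -3.41 and -1.38 with a pseudocount of 0.1. Without CTX 3 and CTX_HCQ 3, and with FPKM rescaled to recovered read totals, both chosen after seeing the data, 0 genes were called. With 13753242 to 17637297 reads per library, the lowest members rested on few reads, Loxl4 on 2 to 364.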
